A study of Mus musculus with 18 samples.

Results

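The effect of *Fgfr2+/S252W*, a knock-in allele that models Apert syndrome, was described in Meckel's cartilage (MC) at embryonic day (E) 16.5. The 6 MC libraries were chosen by their tissue label from the 18 RNA-seq libraries of the series, and they comprised 3 from heterozygous *Fgfr2+/S252W* embryos and 3 from *Fgfr2+/+* littermates. All embryos were female and of the C57BL/6 strain. MC was captured by laser microdissection from unfixed coronal cryosections of the head, and the RNA was amplified before library preparation. The other 12 libraries, from mandibular bone and mandibular condylar cartilage with 3 per genotype and tissue, were used only to show where MC differed. Each mutant embryo carried the allele in all of its tissues, so an effect that arose in MC and one that reached it from its neighbours cannot be told apart. Differences in these bulk samples can come from fewer cells of a type or from less RNA per cell, which also cannot be told apart.

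MC is the rod of cartilage that forms in the mandibular process before the lower jaw ossifies. Its chondrocytes express *Sox9* and fill their matrix with type II, IX and XI collagen and aggrecan, and a perichondrium rich in type I collagen surrounds it. The mandibular bone forms beside it by intramembranous ossification, and parts of the rod are later resorbed or replaced. FGFR2 is a receptor tyrosine kinase that binds FGF ligands together with heparan sulfate and signals through the RAS-ERK, PI3K and PLC-gamma routes, while Sprouty and DUSP proteins damp the signal. The Apert substitution lies in the linker between the immunoglobulin-like domains that bind ligand and changes ligand affinity and specificity.

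The sequence of the mutated codon is shown because it is the only designed difference between the groups. In the mouse reference genome (GRCm38) the serine codon that S252W changes lies in exon 6 of *Fgfr2* on the minus strand of chromosome 7, as read in 4 of the 18 coding transcripts that begin at a start codon (*Fgfr2-202*, *-204*, *-206* and *-209*, GENCODE M21). S252W replaces this serine with tryptophan. In the wild-type coding strand, chr7:130201145-130201171, the codon is in capitals and the proline codon follows it.

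Fgfr2 wild-type window: cggTCAccacaccggcccatcctccaa

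The deposited gene counts carry no information on the 2 alleles, so the table of reads per gene does not check the genotype label. *Fgfr2* (ENSMUSG00000030849) itself was measured at 32.5, 38 and 54.3 TMM-normalized FPKM (fragments per kilobase of gene and library total, scaled with the trimmed mean of M values) in *Fgfr2+/S252W* replicates 1, 2 and 3, and at 72.6, 54.1 and 31.5 in *Fgfr2+/+* replicates 1, 2 and 3. The mutant values lay inside the range of the *Fgfr2+/+* values. The log2 fold change (*Fgfr2+/S252W* minus *Fgfr2+/+*, as throughout) was -0.31 (SE 0.30), with an adjusted p of 0.8 in limma, and -0.02 without *Fgfr2+/+* replicate 1.

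The libraries held 8218548 to 10559607 counted fragments each. Mitochondrial genes took 26.3 to 38.1% of them and the ribosomal RNA-overlapping gene *Gm42418* another 24.1 to 39.4%, which left 2309734 to 4960691 fragments for all other genes. Pearson correlations of log2 expression across genes were 0.932 to 0.942 among the *Fgfr2+/S252W* libraries and 0.871 to 0.89 among the *Fgfr2+/+* libraries. The median SD per gene was 0.332 and 0.497 on the log2 scale, respectively. *Fgfr2+/+* replicate 1 stood apart, with correlations of 0.87 to 0.908 to the other 5, the lowest share of both mitochondrial and *Gm42418* fragments, and the largest TMM factor (1.62, against 0.758 to 1.13). A log2 fold change in MC that turned sign or moved by over 1.5 times without this library is followed by its left-out value, the log2 fold change without *Fgfr2+/+* replicate 1, or by its value without replicate 1 of both genotypes.

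The tissue label was checked against marker genes, summed over each list. The 13 chondrocyte markers, among them *Col2a1*, *Acan*, *Matn1* and *Sox9*, summed to 1460, 354 and 339 TMM-normalized FPKM in *Fgfr2+/S252W* and to 62.9, 512 and 538 in *Fgfr2+/+*. *Fgfr2+/S252W* replicate 1 held the highest value of the 6 libraries for 12 of the 13 markers, and *Fgfr2+/+* replicate 1 had the lowest sum. Before TMM scaling, the sum was 101 to 1640 FPKM in MC, 49.9 to 156 in bone and 7060 to 10000 in condylar cartilage. The MC libraries thus carried far less chondrocyte message per fragment than condylar cartilage, and *Fgfr2+/+* replicate 1 lay within the range of bone.

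Perichondrium and fibroblast markers, including *Col1a1*, *Col3a1* and *Postn*, summed to 819, 1050 and 1100 in *Fgfr2+/S252W* and to 1180, 860 and 779 in *Fgfr2+/+*. This sum exceeded that of the chondrocyte markers in 5 of the 6 libraries. Osteoblast markers summed to 712, 853 and 912 in *Fgfr2+/S252W* against 1130, 730 and 592 in *Fgfr2+/+*, and the terminal osteoblast gene *Bglap* was at 0 in all 6. *Col1a1* and *Col1a2* count in both the perichondrium and the osteoblast sum. With *Sparc* they made up most of the osteoblast sum, as in *Fgfr2+/S252W* replicate 1 (155, 158 and 369 of 712). That sum thus mainly reads genes that are not limited to osteoblasts. *Fgfr2+/+* replicate 1 held the highest level of 8 of the 12 osteoblast genes. The bone sialoprotein gene *Ibsp* shows the size of the gap. It was at 74.7 in that library and between 0.587 and 3.06 in the other 5.

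Erythroid markers summed to 87.7 to 403 over the 6 libraries, skeletal muscle markers to 1.37 to 99.2, and endothelial markers to 3.78 to 19.7. Tendon markers lay between 24.4 and 56 and smooth muscle and pericyte markers between 13.2 and 25.6. The ranges of the genotypes overlapped for each of these lists. Schwann cell, neuron and epithelium markers stayed at or below 2.17 in every library, with the keratins *Krt14* and *Krt17* at 0 in all. The part that captured cell types had in any difference between genotypes was not tested.

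**Figure D1:**
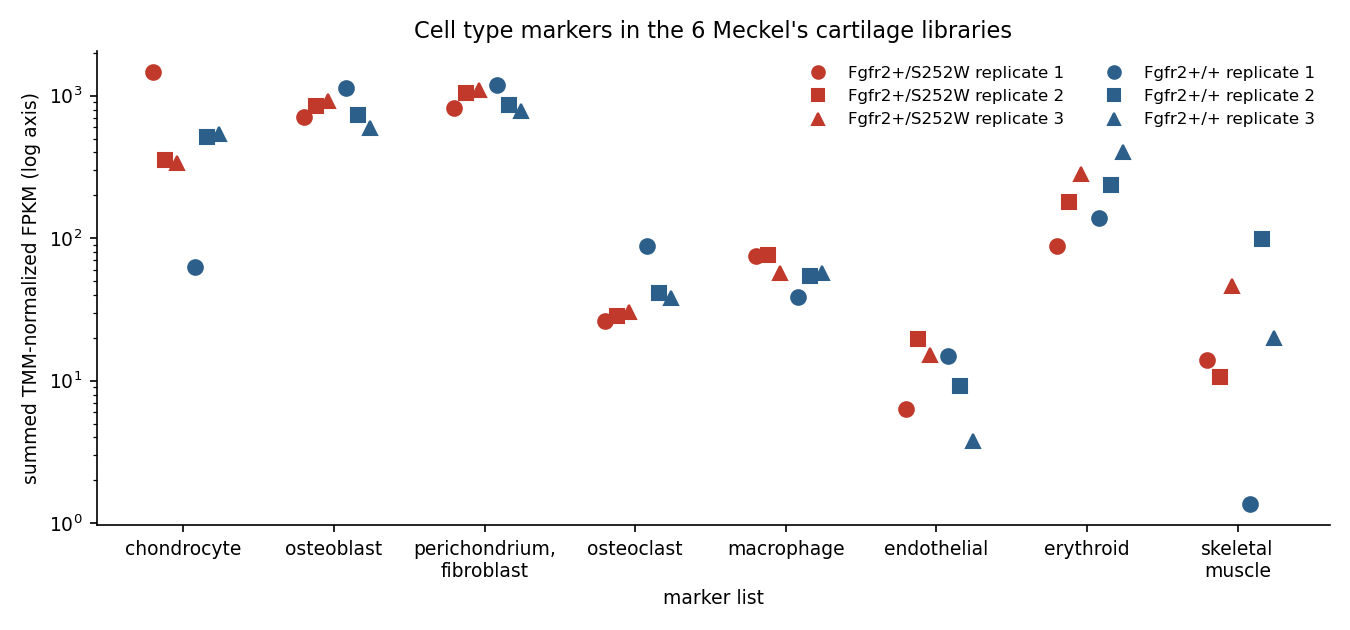
Summed marker levels in the 6 MC libraries for 8 of the marker lists. The log-scaled axis gives the sum of TMM-normalized FPKM over each list, colours are the genotypes and symbols the replicates. Chondrocyte markers ranged from 62.9 in *Fgfr2+/+* replicate 1 to 1460 in *Fgfr2+/S252W* replicate 1, while the osteoclast sums of the genotypes did not overlap.

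The first comparison asked which genes differed between genotypes in MC, with the filter, scaling and spread taken from these 6 libraries. Of the 38243 genes in the files, 10986 passed 1 FPKM in at least 3 of the 6 libraries. None of them passed an adjusted p of 0.05 in limma (0% called), and the smallest adjusted p was 0.606. At an unadjusted p under 0.05, 496 genes were higher (4.51% of those tested) and 371 lower (3.38%), which is 867 together. All 3 *Fgfr2+/S252W* libraries lay above all 3 *Fgfr2+/+* libraries for 764 genes (6.95%) and below them for 743 (6.76%). edgeR's quasi-likelihood test also called 0 genes, with 343 higher and 408 lower at an unadjusted p under 0.05, while DESeq2 called 1 (*Srgn*), with 347 higher and 425 lower at that level. Which direction held more genes thus depended on the tool, and without *Fgfr2+/+* replicate 1 limma gave 446 in each direction (4.36%). Without replicate 1 of both genotypes, 4.08% of the genes tested were higher and 3.37% lower, and each count of list members is to be read against the shares of its own fit. Of the 10986 genes, 61 passed the filter on low values only through the *Fgfr2+/S252W* libraries and 37 only through the *Fgfr2+/+* libraries, so they had to differ. Those among the genes named here are *Rgs7bp*, *Fgf11*, *Adgre1* and *Srgn*.

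The precision was limited. The biological coefficient of variation was 0.375, the median SE of a log2 fold change was 0.401 and the median 95% confidence interval reached 0.874 to either side. A difference of a typical gene below that size was not detectable at this depth and number of embryos. The median log2 fold change over all genes tested was 0.03.

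**Figure D2:**
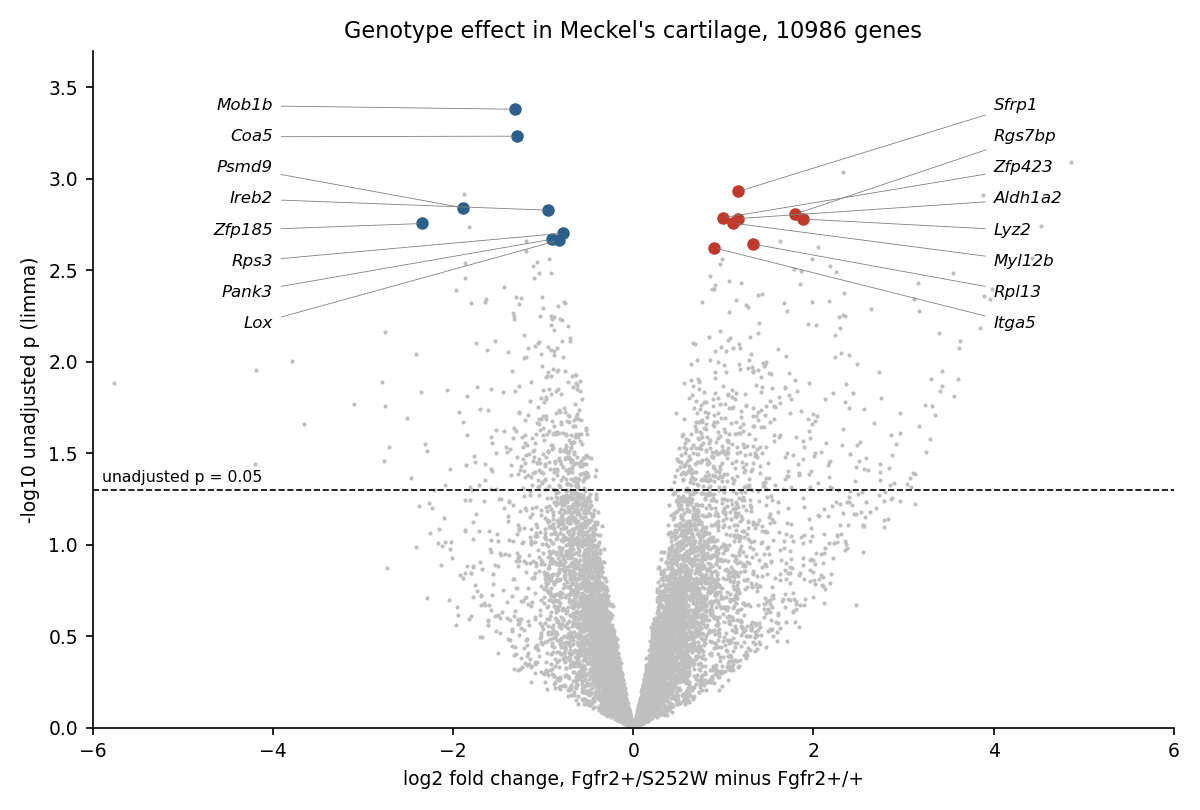
Genotype effect over the 10986 genes tested in MC. The horizontal axis is the log2 fold change of *Fgfr2+/S252W* over *Fgfr2+/+*, the vertical axis is -log10 of the unadjusted limma p with a dashed line at 0.05, and the 16 coloured points are the named genes of either direction, all of which had an adjusted p of 0.606.

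The 16 genes with the smallest unadjusted p, 8 in each direction, are described as values. They were taken among genes with no overlap between genotypes and a group mean of at least 10 CPM (counts scaled to library size), without unnamed gene models and mitochondrial genes. Each had an adjusted p of 0.606 in limma, and the lack of overlap was part of how they were chosen.

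The named genes at higher levels in *Fgfr2+/S252W* MC are given first. *Sfrp1* (ENSMUSG00000031548), a secreted antagonist of Wnt ligands, was at 7.78, 6.19 and 6.4 TMM-normalized FPKM in *Fgfr2+/S252W* and at 2.64, 3.79 and 2.98 in *Fgfr2+/+*. Its log2 fold change was 1.17 (SE 0.27), and 1.03 without *Fgfr2+/+* replicate 1. *Itga5*, the alpha chain of the fibronectin receptor, was at 9.17, 8.94 and 10.3 against 4.69, 5.48 and 5.27 (log2 fold change 0.90, SE 0.23). Both genes were tight within each genotype. *Rgs7bp*, which anchors regulators of G protein signaling at the membrane, was at 1.41, 2.32 and 2.47 against 0.535, 0.721 and 0.456 (1.80, SE 0.44), all below 1 FPKM before TMM scaling in *Fgfr2+/+*.

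*Aldh1a2* encodes an enzyme that makes retinoic acid. It was at 31.7, 43.1 and 24.9 in *Fgfr2+/S252W* and at 11.2, 13.8 and 20.7 in *Fgfr2+/+*, with a log2 fold change of 1.16 (SE 0.29). *Zfp423*, a zinc finger factor that interacts with BMP-activated SMADs, was at 11.3, 10.3 and 9.38 against 4.82, 6.86 and 4.32 (0.99, SE 0.24). *Myl12b*, a regulatory light chain of nonmuscle myosin, was at 21.2, 24.7 and 30.7 against 10.6, 11.2 and 13.9 (1.11, SE 0.28). In none of these 3 genes did *Fgfr2+/+* replicate 1 alone set the gap. *Lyz2*, the lysozyme of macrophages, was at 10.4, 10.8 and 12.1 against 2.12, 7.81 and 2.00 (1.89, SE 0.47). The ribosomal protein gene *Rpl13* was at 75.5, 37.3 and 49 against 19.4, 32.5 and 15.3 (1.33, SE 0.34), and its value is uncertain because processed copies in the genome can share its reads.

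Among genes at lower levels, the 2 of these with the smallest p were *Mob1b* and *Coa5*. *Mob1b* (ENSMUSG00000006262, chromosome 5, 88720855 to 88762058, mm10) encodes a co-activator of the LATS kinases of the Hippo pathway, and it was at 1.85, 2.23 and 2.23 in *Fgfr2+/S252W* and at 5.55, 4.25 and 5.75 in *Fgfr2+/+*. Its log2 fold change was -1.32 (SE 0.27), and it stayed between -1.44 and -1.14 when libraries were left out. *Coa5* (ENSMUSG00000026112, chromosome 1, 37417084 to 37430103) encodes an assembly factor of cytochrome c oxidase, and it was at 5.3, 8.48 and 6.56 against 20.3, 15.1 and 12.5. The log2 fold change was -1.29 (SE 0.28), with a range of -1.44 to -0.89 over the left-out libraries. *Fgfr2+/+* replicate 1 held the highest *Coa5* value, and the other 5 libraries still did not overlap.

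*Lox*, the lysyl oxidase that cross-links collagen and elastin, was at 21.5, 25.4 and 18.2 in *Fgfr2+/S252W* and at 45.1, 36.9 and 32.3 in *Fgfr2+/+* (-0.83, SE 0.21). *Ireb2*, which binds iron-responsive elements in mRNAs, was at 5.6, 7.52 and 5.59 against 12.6, 10.1 and 12.6 (-0.94, SE 0.23). *Pank3*, a pantothenate kinase of coenzyme A synthesis, was at 4.08, 4.62 and 5.81 against 8.79, 10.2 and 7.96 (-0.91, SE 0.23). For each of the 3 genes the gap between the genotypes was wider than the range within *Fgfr2+/S252W* or close to it. *Psmd9*, a chaperone of proteasome assembly, was at 0.868, 1.51 and 1.11 against 4.95, 4.05 and 3.12 (-1.89, SE 0.46). The LIM domain gene *Zfp185* was at 0.468, 0.432 and 1.15 against 4.7, 2.73 and 2.05 (-2.34, SE 0.58). *Rps3*, again a ribosomal protein gene with processed copies, had a log2 fold change of -0.78 (SE 0.20).

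**Figure D3:**
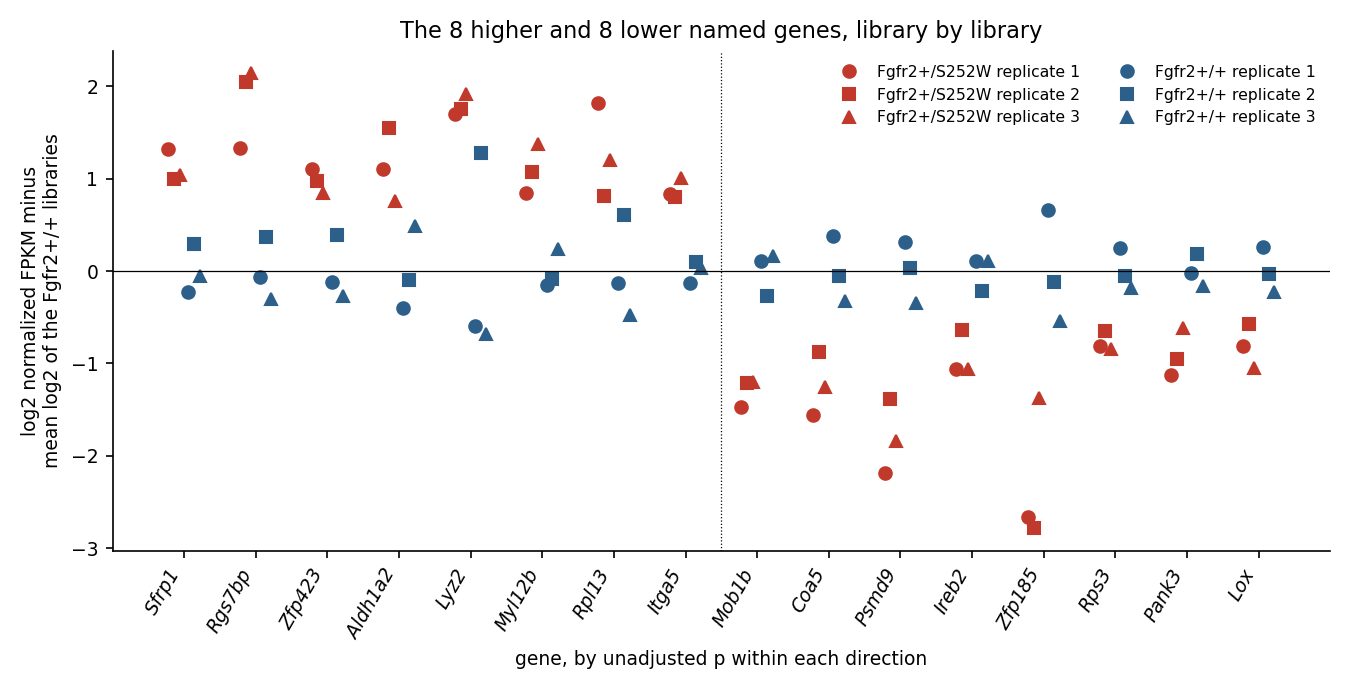
Levels of the 16 named genes by library. The vertical axis is the log2 of TMM-normalized FPKM minus the mean log2 of the *Fgfr2+/+* libraries, colours are the genotypes and symbols the replicates. No gene overlaps between genotypes, which is how the genes were selected, and the gap is narrow for *Aldh1a2* (24.9 against 20.7 TMM-normalized FPKM) and *Rpl13* (37.3 against 32.5).

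Genes of the cartilage matrix came next, since MC is defined by them. All 20 measured members of a list of cartilage proteoglycans and other noncollagenous proteins, out of 24 listed, had log2 fold changes above 0, with a median of 1.07. Of 10 cartilage collagen genes 9 were above 0, with a median of 0.79. Only *Chadl*, a chondroadherin-like protein, was higher at an unadjusted p under 0.05 (0 lower), beside 4.51% and 3.38% of all genes. No member passed the adjusted threshold. Both medians came down when replicate 1 was left out, to 0.28 and 0.02 without the *Fgfr2+/+* library. Without replicate 1 of both genotypes they were -0.28 for each list, with 3 matrix genes and 5 collagen genes lower at an unadjusted p under 0.05 (3.37% of all genes tested in that fit).

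*Col2a1*, the main fibrillar collagen of cartilage, was at 915, 198 and 211 in *Fgfr2+/S252W* and at 27.9, 313 and 315 in *Fgfr2+/+*. The highest and the lowest value of the 6 were thus both in replicate 1, with opposite genotypes. The log2 fold change was 1.23 (SE 0.81), it was 0.09 without *Fgfr2+/+* replicate 1, and it turned to -0.61 without replicate 1 of both. *Acan*, which encodes the large proteoglycan aggrecan, was at 80.0, 16.1 and 15.8 against 8.93, 20.4 and 26.4 (0.76, SE 0.56, left-out 0.29), and *Col9a3*, a chain of the collagen on the fibril surface, at 113, 32.2 and 20.8 against 2.91, 33.9 and 42.2 (1.62, SE 0.86, left-out 0.22). They showed the same order of libraries at the extremes, and both turned negative without replicate 1 (-0.54 and -0.56). *Col11a2* was at 111, 44 and 36.1 against 5.65, 51 and 50.3 (1.28, SE 0.70, left-out 0.17), and at -0.34 in the 4 remaining libraries.

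The next 5 matrix genes also had their highest value in *Fgfr2+/S252W* replicate 1 and their lowest in *Fgfr2+/+* replicate 1. *Col11a1*, the fibril-nucleating type XI chain, was at 134, 69 and 74.3 against 55.1, 68.7 and 64, a narrow separation of the genotypes (0.51, SE 0.25, and 0.12 without both libraries of replicate 1). *Bgn*, the small proteoglycan biglycan, was at 214, 199 and 178 against 102, 167 and 176 (0.46, SE 0.23, and 0.14). *Hspg2*, which encodes perlecan, was at 38.5, 20.1 and 20.1 against 15.8, 26.8 and 21, and the groups overlapped (0.29, SE 0.28, and -0.23 without both libraries of replicate 1). The cytokine-like cartilage gene *Cytl1* was at 60.6, 22.4 and 27.8 against 4.87, 49.5 and 24.8 (1.19, SE 0.67, and -0.47 without both libraries). *Chadl* was at 5.38, 1.94 and 2.71 against 0.245, 1.99 and 2.27 (2.01, SE 0.76, and 0.14 without both libraries).

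The transcription factors of chondrocytes had 0 of 10 measured genes at an unadjusted p under 0.05. *Sox9*, the master factor of cartilage, was at 16.3, 11.9 and 9.55 in *Fgfr2+/S252W* and at 2.44, 12.2 and 10.2 in *Fgfr2+/+*. *Fgfr2+/+* replicate 1 was the lowest library and *Fgfr2+/S252W* replicate 1 the highest, and the other 4 overlapped. The log2 fold change was 1.04 (SE 0.49), with 0.17 without that library and -0.06 without replicate 1 of both genotypes. *Wwp2*, the ubiquitin ligase that hosts *miR-140*, was at 55, 28.6 and 15.4 against 9.51, 20.5 and 34.2 (0.69, SE 0.48, left-out 0.16).

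Of 15 measured genes of hypertrophic chondrocytes, 1 was higher (*Vegfa*) and 1 lower (*Cd200*) at an unadjusted p under 0.05, beside 4.51% and 3.38% of all genes, with a median of -0.21. Without *Fgfr2+/+* replicate 1 the median was 0.11 over 13 measured genes, with 0 higher and 1 lower (4.36% of all genes in each direction). Without replicate 1 of both genotypes it was 0.20 over 14, with 4 higher and 1 lower (4.08% and 3.37%). *Runx2*, the factor that drives hypertrophy and bone formation, was at 10.4, 12.8 and 28.8 against 42.6, 13.3 and 6.42, so the highest and the lowest value were both in *Fgfr2+/+*. Its log2 fold change was -0.04 (SE 0.57, left-out 0.76). *Alpl*, the phosphatase of mineralizing cells, spread from 4.01 to 77.8 within *Fgfr2+/+* and was at 11.2, 11.3 and 41.3 in *Fgfr2+/S252W* (-0.19, SE 0.85, left-out 1.06). *Vegfa*, the angiogenic factor of hypertrophic cartilage, was at 13.1, 4.58 and 6.36 against 3.48, 6.09 and 3.01 (0.96, SE 0.41). The groups overlapped, and the value was 0.48 without *Fgfr2+/S252W* replicate 1, which held the highest level, and 0.36 without replicate 1 of both genotypes. *Cd200*, a membrane glycoprotein, was at 5.76, 6.89 and 8 against 25.7, 11.1 and 7.67 (-1.04, SE 0.43, left-out -0.45).

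The FGF pathway was followed from ligands to feedback targets. Among ligands, 5 of 16 genes were measured. At an unadjusted p under 0.05, 1 was higher (*Fgf7*) and 0 were lower, beside 4.51% and 3.38% of all genes. *Fgf11* was higher too but is not counted, since it passed the filter on low values only through *Fgfr2+/S252W*. *Fgf18*, a ligand of cartilage and bone, was the most abundant, at 5.7, 8.46 and 5.82 against 4.63, 7.5 and 8.24 (0.04, SE 0.39, left-out -0.30). *Fgf7*, a ligand of the epithelial FGFR2 isoform, was at 2.29, 2.59 and 1.39 against 0.159, 3.3 and 0.73 (1.84, SE 0.81, and 0.38 without *Fgfr2+/+* replicate 1). *Fgf11*, an intracellular member of the family that is not secreted, was at 1.65, 1.96 and 1.1 against 0.553, 0.812 and 0.0793 (1.99, SE 0.73, and 1.24 without *Fgfr2+/+* replicate 3, the lowest library). Its value rests on 58, 41 and 29 fragments against 27, 20 and 2.

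Of the receptors, 4 of 5 were measured, and 0 were at an unadjusted p under 0.05. *Fgfr1*, the main FGF receptor of mesenchyme, was at 29.5, 25.3 and 24.6 against 10.6, 31.4 and 26.2 (0.40, SE 0.34, left-out -0.11). *Fgfr3*, the receptor that restrains chondrocyte growth, was at 8.83, 2.3 and 3.41 against 7.05, 5.18 and 4.27 (-0.33, SE 0.43, left-out -0.08). *Fgfrl1*, a receptor without a kinase domain, was at 20.4, 11.6 and 8.5 against 3.62, 14.9 and 7.46 (0.94, SE 0.47, and 0.31 without *Fgfr2+/+* replicate 1). For each receptor the genotypes overlapped. *Fgfr4* did not pass the filter on low values.

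Of 9 measured heparan sulfate co-receptors and 27 adaptors and kinases of the pathway, 0 were at an unadjusted p under 0.05. Their medians were 0.10 and -0.04. *Gpc3*, a glypican, was at 48.2, 56 and 56.5 against 50.2, 45.6 and 54, and the adaptor gene *Shc1* at 20.2, 22.9 and 19.4 against 17.5, 21.6 and 21.2. The genotypes overlapped for both genes, with log2 fold changes of 0.10 (SE 0.19) and 0.06 (SE 0.20, left-out -0.05).

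Among 15 measured feedback inhibitors and immediate targets of FGF and ERK signaling, 1 was higher and 0 lower at that level (4.51% and 3.38% of all genes). *Spry4*, a Sprouty inhibitor that ERK signaling induces, was at 1.27, 3.27 and 2.41 in *Fgfr2+/S252W* and at 0.15, 0.189 and 1.79 in *Fgfr2+/+*. *Fgfr2+/+* replicate 3 lay between the mutant values, so the genotypes overlapped. The log2 fold change was 2.64 (SE 0.77, left-out 1.75) and rested on 67, 103 and 96 fragments against 11, 7 and 68. *Spry2*, another Sprouty gene, had 1.08 (SE 0.72, left-out 0.05), *Etv5*, an ETS factor downstream of FGF, 0.43 (SE 0.50, left-out -0.32) and *Dusp6*, the ERK phosphatase, -0.25 (SE 0.79, left-out -1.23). *Ccnd1*, the cyclin that growth factors induce, was at 8.9, 15 and 21.5 against 20, 23.6 and 20.9 (-0.61, SE 0.29, and -0.23 without *Fgfr2+/S252W* replicate 1, the lowest library). The median of the list was 0.43, and -0.07 without *Fgfr2+/+* replicate 1. Without that library 2 members were higher and 1 lower at an unadjusted p under 0.05 (4.36% of all genes in each direction). Without replicate 1 of both genotypes the counts were also 2 and 1 (4.08% and 3.37%).

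Genes of BMP and TGF-beta signaling had 6 of 35 measured members higher and 0 lower at an unadjusted p under 0.05, beside 4.51% and 3.38% of all genes. The 6 were *Ltbp1*, *Acvr1*, *Bmp4*, *Grem1*, *Fst* and *Gdf10*, and the list's median was 0.11. *Ltbp1*, which stores latent TGF-beta in the matrix, was at 13.3, 13.8 and 10.3 against 4.96, 8.52 and 7.54 (0.89, SE 0.25). *Acvr1*, a type I BMP receptor, was at 8.05, 8.81 and 6.51 against 4.21, 4.15 and 4.57 (0.84, SE 0.26, and 0.82 without *Fgfr2+/+* replicate 1). *Bmp4*, a BMP ligand, was at 12.1, 9.59 and 8.65 against 1.84, 6.17 and 7.96 (1.37, SE 0.47, and 0.54). The genotypes did not overlap for these 3, and of them the *Bmp4* value depended most on the single library. *Gdf10*, a growth factor of the family, was at 17.4, 23.5 and 20.2 against 12.6, 15.9 and 13.7 (0.53, SE 0.23). The antagonists *Grem1* (2.52, SE 1.00) and *Fst* (1.89, SE 0.76) overlapped and were at 0.49 and 0.27 without *Fgfr2+/+* replicate 1. Without that library 4 members were higher and 0 lower at that level (4.36% of all genes in each direction). The most abundant member, *Tgfb3*, was at 33.3, 37.3 and 36 against 24.6, 40 and 41.3.

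In the Wnt list, *Sfrp1* was the only 1 of 28 measured genes at an unadjusted p under 0.05 (1 higher, 0 lower, beside 4.51% and 3.38% of all genes). Of 27 measured without *Fgfr2+/+* replicate 1, 1 was higher and 3 were lower (4.36% of all genes in each direction), and without replicate 1 of both genotypes 2 were higher and 2 lower (4.08% and 3.37%). *Ctnnb1*, which encodes beta-catenin, was at 35.5, 51 and 38.7 against 101, 44 and 50.7 (-0.58, SE 0.29, left-out -0.20), with the high value in *Fgfr2+/+* replicate 1. Of 12 hedgehog and PTHrP genes 0 were at that level. *Ptch1*, the hedgehog receptor and target, was at 11.4, 15.3 and 20.3 against 57.4, 20.2 and 12.6 (-0.75, SE 0.46). Without *Fgfr2+/+* replicate 1 its value was -0.08. Of 17 measured genes of insulin-like growth factor signaling, 1 was higher and 0 were lower, beside 4.51% and 3.38% of all genes. The higher one was *Igfbp2* (2.18, SE 0.99, left-out -0.09), and it stood at 0.256 in *Fgfr2+/+* replicate 1, against 4.97 to 11.7 in the other 5. *Igf2*, the fetal growth factor, was at 820.1, 709.9 and 626 against 576, 1010 and 755.

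Enzymes that modify, fold and cross-link collagen had 5 of 29 measured genes higher and 1 lower at an unadjusted p under 0.05, beside 4.51% and 3.38% of all genes, with a median of 0.10. *Plod1* and *Plod3*, lysyl hydroxylases, had log2 fold changes of 0.75 (SE 0.29, left-out 0.42) and 0.78 (SE 0.30) and no overlap between genotypes. *Ppib*, the cyclophilin of the prolyl 3-hydroxylase complex, was at 8.67, 11.8 and 8.99 against 4.87, 5.41 and 4.65 (0.94, SE 0.37). *P3h3*, a prolyl 3-hydroxylase family member, was at 29.9, 17 and 20.2 against 7.64, 19.2 and 11.8 (0.94, SE 0.33, left-out 0.57), and *Loxl3*, a lysyl oxidase relative, at 22, 6.36 and 6.29 against 1.98, 5.79 and 7.93 (1.31, SE 0.57, left-out 0.59). The last 2 overlapped. The 1 lower gene was *Lox*, described above, and without *Fgfr2+/+* replicate 1 the counts were 1 higher and 1 lower (4.36% of all genes in each direction). The collagen chaperone gene *Serpinh1* was the most abundant, at 47.3, 50.9 and 67.4 against 90, 51.2 and 50.3.

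Of 34 genes for folding and secretion in the endoplasmic reticulum, 0 were higher and 1 was lower (4.51% and 3.38% of all genes), the chaperone *Calr* (-0.53, SE 0.22), whose genotypes overlapped. Without *Fgfr2+/+* replicate 1, 3 were higher and 0 lower (4.36% of all genes in each direction), and without replicate 1 of both genotypes, 5 were higher and 0 lower (4.08% and 3.37%). Of 31 measured genes of chondroitin and heparan sulfate synthesis, 0 were at that level. Among 23 matrix proteases and inhibitors 0 were higher and 2 lower (4.51% and 3.38% of all genes), and without *Fgfr2+/+* replicate 1, 0 of 22 were higher and 3 lower (4.36% each). *Timp1*, an inhibitor of metalloproteinases, was at 2.44, 3.12 and 5.57 in *Fgfr2+/S252W* and at 11, 12 and 7.21 in *Fgfr2+/+* (-1.53, SE 0.48, and -1.42 without *Fgfr2+/+* replicate 1). *Mmp9*, a gelatinase of osteoclasts, was at 5.91, 4.46 and 5.72 against 22.3, 13.5 and 6.25 (-1.26, SE 0.44, and -0.76). Both separated the genotypes, *Mmp9* by a small margin.

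**Figure D4:**
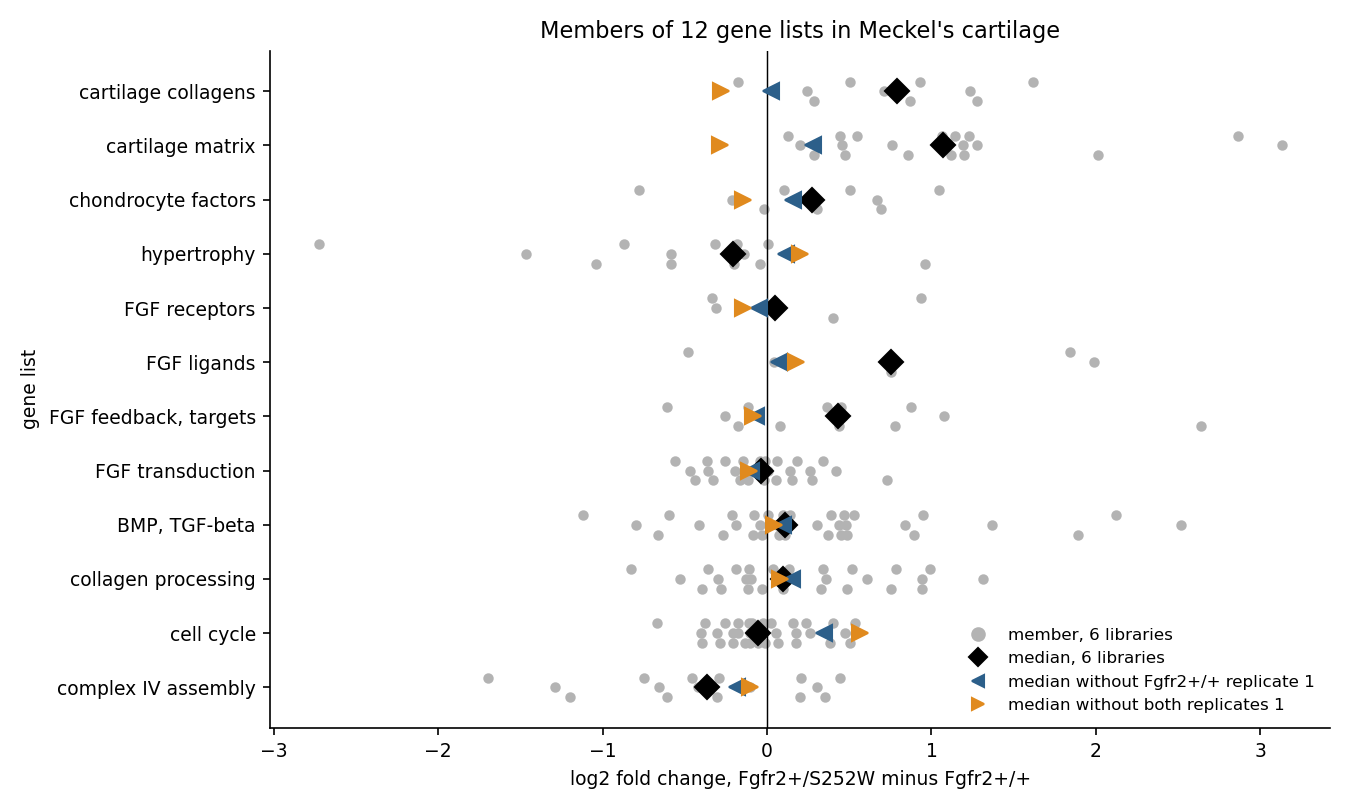
Log2 fold changes of the members of 12 gene lists in MC. The horizontal axis is the log2 fold change of *Fgfr2+/S252W* over *Fgfr2+/+*, grey points are measured genes, and diamonds and triangles are the list's median over the 6 libraries, without *Fgfr2+/+* replicate 1 and without both libraries of replicate 1. The cartilage matrix median moved from 1.07 over 0.28 to -0.28 and the cell cycle median from -0.05 over 0.35 to 0.57.

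Phosphate and pyrophosphate genes were listed because they set mineralization. Of 13 measured, 0 were higher and 1 lower at an unadjusted p under 0.05, beside 4.51% and 3.38% of all genes. The lower one was the phosphate exporter *Xpr1* (-0.61, SE 0.24). Without *Fgfr2+/+* replicate 1, 1 was higher and 2 were lower (4.36% of all genes in each direction). Without replicate 1 of both genotypes, 2 were higher and 3 lower (4.08% and 3.37%). *Enpp1*, which makes pyrophosphate, was at 7.42, 1.85 and 2.19 against 0.672, 5.29 and 5.54. The extremes were again both in replicate 1, and the log2 fold change of 0.56 (SE 0.76) became -0.68 without *Fgfr2+/+* replicate 1 and -1.41 without both. *Ank*, the gene for the exporter that releases pyrophosphate, was at 5.13, 3.58 and 4.11 against 2.66, 4.45 and 3.56 (0.36, SE 0.32, left-out 0.12). *Mgp*, the matrix Gla protein that inhibits calcification, was at 54.2, 47.7 and 51.6 against 42.7, 88.3 and 65.8 (-0.24, SE 0.29, left-out -0.56).

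All 35 genes of S phase and mitosis were measured. At an unadjusted p under 0.05, 0 were higher and 0 lower, 14 lay above and 21 below 0, and the median was -0.05. *Mki67*, which marks cycling cells, was at 21.3, 17.7 and 23 against 24.9, 14 and 10.9 (0.38, SE 0.28, left-out 0.75, and 0.73 without replicate 1 of both genotypes). *Pcna*, the replication clamp, was at 11.1, 18.1 and 27.7 against 29.1, 14.7 and 16.3 (-0.20, SE 0.37, left-out 0.16). Both had their highest value in *Fgfr2+/+* replicate 1. Without that library 30 of the 35 lay above 0, with 4 higher and 0 lower (4.36% of all genes in each direction) and a median of 0.35. Without replicate 1 of both genotypes 32 lay above 0, 11 were higher and 0 lower (4.08% and 3.37% of all genes in that fit), and the median was 0.57. The cell cycle inhibitor *Cdkn1c* was at 150.2, 164 and 214 against 180.1, 143 and 165, and 0 of 8 measured inhibitors were at that level.

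Osteoclast and macrophage genes were read as 2 lists. The 10 osteoclast markers summed to 26.2, 28.4 and 30.2 TMM-normalized FPKM in *Fgfr2+/S252W* and to 88, 41 and 37.8 in *Fgfr2+/+*. The genotypes did not overlap, and the exact two-sided permutation p was 0.1, the smallest that 3 against 3 can give. This test was run on all 13 marker lists without adjustment for their number. Only the osteoclast and macrophage lists reached 0.1, and the others gave 0.2 or more. All 5 measured members had log2 fold changes below 0 (median -1.26), and 3 were lower at an unadjusted p under 0.05, beside 3.38% of all genes. Without *Fgfr2+/+* replicate 1, 1 was lower (4.36% of all genes) and the median was -0.76, and without replicate 1 of both genotypes 0 were lower. *Acp5*, the tartrate-resistant acid phosphatase, was at 1.51, 1.17 and 2 against 12.8, 3.22 and 3.45 (-1.94, SE 0.71, left-out -1.09). *Atp6v0d2*, a subunit of the osteoclast proton pump, was at 0.415, 1.77 and 0.805 against 8.32, 1.41 and 1.56 (-2.04, SE 0.87, left-out -0.94), and it overlapped. *Fgfr2+/+* replicate 1, the library with the most osteoblast message, also held the highest value of 6 of the 10 osteoclast markers. The integrin gene *Itgb3* did not pass the filter. Before TMM scaling the sum was 21.4 to 141 FPKM in MC, 595 to 1710 in bone and 21.2 to 29.5 in condylar cartilage.

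The 12 macrophage markers summed to 75, 76.8 and 57.4 in *Fgfr2+/S252W* and to 38.8, 54.4 and 57.2 in *Fgfr2+/+* (exact two-sided permutation p 0.1). The genotypes were separated by the distance from 57.4 to 57.2. Of 9 measured members *Adgre1* passed the filter on low values only through *Fgfr2+/S252W*. Of the other 8, 4 were higher and 1 lower at an unadjusted p under 0.05, beside 4.51% and 3.38% of all genes, with a median of 0.97. Without *Fgfr2+/+* replicate 1 there were 3 higher, *Adgre1* included, and 0 lower (4.36% of all genes in each direction). *Adgre1*, which encodes the F4/80 antigen, was at 1.74, 2.38 and 1.49 against 0.0192, 0.229 and 1.04 (3.55, SE 0.97, left-out 1.82). The value rests on 65, 53 and 42 fragments against 1, 6 and 28, and it was 1.82 without the library with 1 fragment. The complement genes *C1qb* and *C1qc* were at 15.2, 10.7 and 14.2 against 0.746, 10.1 and 5.66 and at 9.59, 8.96 and 6.22 against 0.934, 6.99 and 5.62. Their log2 fold changes of 2.35 (SE 0.70) and 1.63 (SE 0.64) came to 0.84 and 0.38 without *Fgfr2+/+* replicate 1. *Mrc1*, the mannose receptor, was at 2.35, 3.05 and 1.16 against 0.909, 0.878 and 1.04 (1.10, SE 0.44). In the opposite direction, the adaptor gene *Tyrobp* was at 9.53, 9.03 and 5.31 against 18.5, 10.5 and 22.9 (-1.10, SE 0.46). *Csf1r*, the receptor for macrophage colony-stimulating factor, was at 4.65, 4.41 and 2.1 against 1.97, 1.49 and 2.6 (0.84, SE 0.39).

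Of 23 measured Hippo pathway genes, 1 was higher and 2 were lower at an unadjusted p under 0.05, beside 4.51% and 3.38% of all genes. The lower ones were *Mob1b* and the kinase gene *Lats1*, which was at 8.07, 9.43 and 9.35 against 12.5, 15 and 12.9 (-0.59, SE 0.20, and -0.64 without *Fgfr2+/+* replicate 1). The higher one was *Wwc2*, an upstream scaffold, at 5.7, 3.63 and 3.78 against 1.95, 2.8 and 3.12 (0.81, SE 0.30). *Amotl1*, the most abundant member, had -0.43 (SE 0.22, left-out -0.24). Of 16 measured assembly factors of cytochrome c oxidase 0 were higher and 3 lower, with 11 below 0 and a median of -0.36, beside 3.38% of all genes lower. Without *Fgfr2+/+* replicate 1 the median was -0.18 with 2 of 14 measured lower, and without replicate 1 of both genotypes it was -0.10 with 1 of 14 lower and 1 higher. Beside *Coa5* these were the twin-cysteine factor *Cmc1*, at 0.881, 1.48 and 1.75 against 3.86, 2.83 and 7.36 (-1.70, SE 0.62), and the chaperone *Pet100*, at 2.26, 0.98 and 2.42 against 4.78, 3.95 and 3.96 (-1.20, SE 0.53). The 3 genes did not overlap between genotypes, and both lists were drawn up knowing that *Mob1b* and *Coa5* were at the head of the ranking.

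Homeobox and Hand factors that pattern the jaw had a median log2 fold change of 0.12 over 20 measured genes. At an unadjusted p under 0.05, 3 were higher and 0 lower, beside 4.51% and 3.38% of all genes. Without *Fgfr2+/+* replicate 1, 1 was higher and 1 lower (4.36% of all genes in each direction). *Lhx8*, a LIM homeobox gene of the jaw mesenchyme, was at 7.19, 7.29 and 8.01 against 3.87, 3.12 and 5.51 (0.89, SE 0.32). *Dlx1*, a distal-less homeobox gene, was at 2.22, 2.8 and 3.3 against 1.08, 1.11 and 2.56 (0.96, SE 0.41). *Lhx8* did not overlap between genotypes, and *Dlx1* did. Among 27 measured genes of glycolysis and low oxygen, 1 was higher (*Vegfa*, described above) and 1 lower, beside 4.51% and 3.38% of all genes. The lower one, *Vhl*, which targets HIF proteins for destruction, was at 1.71, 2.87 and 3.88 against 6.26, 7.79 and 5.36 (-1.30, SE 0.37), and *Ldha*, the lactate dehydrogenase, was at 46.2, 67.8 and 73.3 against 77.1, 65.2 and 59.9 (-0.15, SE 0.22, left-out -0.04).

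The study had chosen 8 osteoclast and 8 ossification genes on the bone libraries of the same series, so these lists are not independent of it. In MC, 4 of the osteoclast genes were measured, with 0 higher and 2 lower (*Acp5* and *Tnfrsf11a*, the RANK receptor) beside 3.38% of all genes, and with 0 lower without *Fgfr2+/+* replicate 1. Of the ossification genes 8 were measured, with 1 higher and 0 lower, beside 4.51% and 3.38% of all genes. The higher one was *Ptn*, the growth factor pleiotrophin, at 169.9, 165 and 239 against 120.3, 139.7 and 94.5 (0.69, SE 0.22). The genotypes did not overlap for it.

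The second comparison asked where the genotype effect differed between MC and the other tissues. It was fitted over all 18 libraries as the effect in MC minus the effect in bone or in condylar cartilage, so the tissues share 1 estimate of the spread, and values are scaled over 18 libraries. Between MC and bone 6 of 11469 genes passed an adjusted p of 0.05 in limma (0.0523% called). Between MC and condylar cartilage 0 passed (0%), with 1091 at an unadjusted p under 0.05 and 0 by edgeR. The 6 genes were *Penk*, *Sfrp1*, *Lyz2*, *Atp6v1b2*, *Xpr1* and *Mfap4*. The same 6 passed with the embryo as a random block (adjusted p 0.0119 to 0.0471 in limma). A replicate block within tissue left only *Penk*. All 6 had opposite signs in MC and bone. In the main fit of 18 libraries none of the 6 effects in MC passed on its own (adjusted p 0.0827 to 0.231 in limma). In bone *Penk* (adjusted p 0.0116 in limma), *Lyz2* and *Xpr1* (0.0483 each) passed. *Atp6v1b2* (0.0763), *Mfap4* (0.135) and *Sfrp1* (0.138) did not.

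*Penk* (ENSMUSG00000045573, chromosome 4, 4133531 to 4138819) encodes the precursor of enkephalin peptides and is active in skeletal mesenchyme. In MC it was at 62.7, 48.5 and 51.5 TMM-normalized FPKM in *Fgfr2+/S252W* and at 45, 35.6 and 27.9 in *Fgfr2+/+*. In bone it was at 3.23, 3.23 and 2.59 against 14.5, 10.6 and 9.74. The mutant values were thus the higher ones in MC and the lower ones in bone, and in condylar cartilage 17.45, 11.05 and 21.7 against 16.6, 20.2 and 19.3 overlapped. The log2 fold change was 0.58 (SE 0.22) in MC and -1.92 (SE 0.29) in bone, a difference of 2.50 (SE 0.37, adjusted p 0.0104 in limma).

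*Sfrp1* (chromosome 8, 23411502 to 23449632) was at 12, 9.58 and 9.73 against 3.93, 5.86 and 4.63 in MC and at 3.38, 4.54 and 3.62 against 8.25, 5.7 and 6.1 in bone. Neither tissue overlapped between genotypes. The log2 fold changes were 1.18 (SE 0.23) and -0.78 (SE 0.19), a difference of 1.97 (SE 0.30, adjusted p 0.0104 in limma). In condylar cartilage the values were 15.8, 15.5 and 12.6 against 13.8, 13.5 and 15.1, and the difference of the MC effect from that effect was 1.13 (adjusted p 0.228).

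*Mfap4* (chromosome 11, 61485431 to 61488900), a microfibril-associated protein of elastic matrix, was at 226, 281 and 299 against 104, 210.2 and 141.5 in MC and at 22.9, 23.6 and 22.7 against 60.8, 49.9 and 43.5 in bone. The difference was 2.03 (SE 0.37, adjusted p 0.043 in limma). *Lyz2* (chromosome 10, 117277334 to 117282274) was at 16, 16.7 and 18.4 against 3.16, 12.1 and 3.11 in MC and at 7.52, 16.2 and 17.4 against 35.6, 33.1 and 38.7 in bone, a difference of 3.37 (SE 0.57, adjusted p 0.0292). For both genes the genotypes were apart in each tissue and in opposite order.

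The other 2 genes had the reverse pattern. *Atp6v1b2* (chromosome 8, 69088646 to 69113711), a subunit of the vacuolar proton pump that osteoclasts use in large amounts, was at 10.1, 7.81 and 13.6 against 22.5, 17.1 and 24.7 in MC and at 105, 93.1 and 76 against 34.7, 52.9 and 60.7 in bone (difference -1.95, SE 0.34, adjusted p 0.0292 in limma). *Xpr1* (chromosome 1, 155275701 to 155417415) was at 5.86, 6.65 and 7.07 against 11.5, 8.43 and 9.35 in MC and at 35.6, 32.6 and 31.8 against 17.6, 19.9 and 21.3 in bone (difference -1.37, SE 0.24, adjusted p 0.0292). The genotypes did not overlap in either tissue.

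The 6 calls differed in how far they depended on single libraries. Over 14 alternative fits, *Penk* passed in 13 and *Sfrp1* in 11, while *Lyz2* passed in 5, *Atp6v1b2* and *Mfap4* in 6 and *Xpr1* in 7. All 6 kept their sign in each of these fits. Without *Fgfr2+/S252W* MC replicate 1 none of the genes tested passed. Without *Fgfr2+/S252W* MC replicate 2 or 3, 2 did, without *Fgfr2+/+* MC replicate 1, 3 did, and without *Fgfr2+/+* MC replicate 2, 27 did. Markers of 2 other cell types moved with these results. In TMM-normalized FPKM the osteoclast sum was lower in all 3 *Fgfr2+/S252W* MC libraries (26.2 to 30.2 against 37.8 to 88), and the macrophage sum, to which *Lyz2* itself belongs, was higher (57.4 to 76.8 against 38.8 to 57.2). Before TMM scaling both sums overlapped between genotypes, at 21.4 to 31.9 against 29.6 to 141 FPKM for osteoclasts and 57.9 to 84 against 44.9 to 62.3 for macrophages. The macrophage markers *C1qb* and *Adgre1* joined the calls with filterByExpr (adjusted p 0.0483 and 0.0441 in limma). The part of either cell type in the result was not tested.

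**Figure D5:**
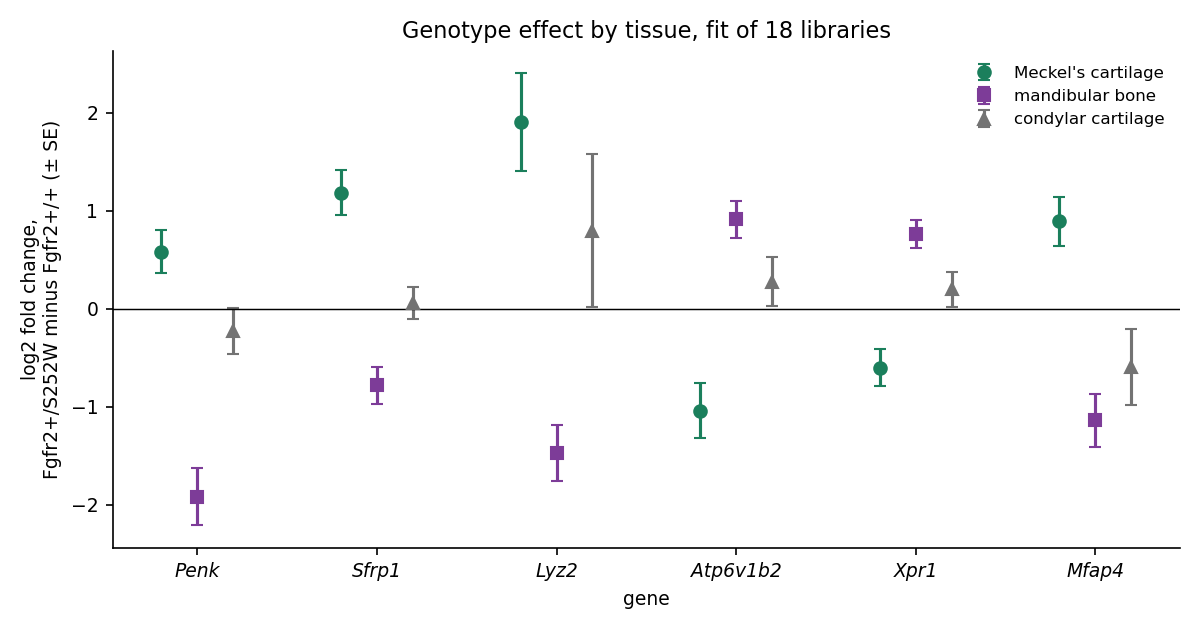
Genotype effect by tissue for the 6 genes whose effect differed between MC and bone. The vertical axis is the log2 fold change of *Fgfr2+/S252W* over *Fgfr2+/+* in the limma model of 18 libraries, points are the tissues and bars are 1 SE to either side. *Penk* lies at 0.58 in MC and -1.92 in bone, and *Xpr1* has the opposite order.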

How the data were processed

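Per the labels and the study's methods, the authors trimmed reads with cutadapt, aligned them with STAR to mm10 and deposited whole-number counts per gene from featureCounts on Ensembl release 75, 1 table per library, with strand ignored and multi-mapped fragments not counted. These counts, read as deposited, gave FPKM from the table's gene lengths and all counted fragments. Genes past 1 FPKM in 3 or more MC libraries were kept, scaled by TMM in edgeR 4.0.16 and fitted with voom, lmFit and eBayes in limma 3.58.1 (R 4.3.3), with Benjamini-Hochberg adjustment over all genes kept. The comparison between tissues used all 18 libraries. DESeq2 1.42.0 and edgeR's quasi-likelihood test were alternatives, with other scalings, filters and left-out libraries. The MC fits by limma, edgeR and DESeq2 and the limma difference between MC and bone were checked on simulated counts. Named genes were the 8 per direction with the smallest p among non-overlapping genes with a group mean of at least 10 CPM (no unnamed models or mitochondrial genes), the members of each list at p under 0.05 (at most 3) and the most abundant, any gene passing the adjusted threshold, and a fixed set (*Fgfr2*, *Sox9*, *Col2a1*, *Acan*, *Runx2*, *Mki67*, *Enpp1*, *Ank*, *Csf1r*, *Itgb3*, *Coa5*, *Mob1b*, *Gm42418*). Other genes were named after their values were seen. Members and lists were chosen with earlier results of these data known. The 3 MC samples per genotype are separate embryos. Same-numbered MC libraries did not deviate together, so no pairing was used. Without strand, overlapping and antisense genes cannot be told apart. Replicate counts came from amplified RNA without molecular identifiers. Sequence came from the GRCm38 genome with GENCODE M21. 1 result is not reported here.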

Additional observations from a re-analysis of the deposited data

Results flagged for a closer look

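For 6 genes the genotype effect in MC differed from that in bone by the limma interaction test over 18 libraries, and this difference between tissues is why they are listed. The difference in log2 fold change was 2.50 for *Penk* (adjusted p 0.0104), 1.97 for *Sfrp1* (0.0104), 3.37 for *Lyz2* (0.0292) and 2.03 for *Mfap4* (0.043), and it was -1.95 for *Atp6v1b2* (0.0292) and -1.37 for *Xpr1* (0.0292). The first 4 were higher in each *Fgfr2+/S252W* MC library than in any *Fgfr2+/+* MC library, in 3 of 3, and the last 2 were lower in 3 of 3. Over the alternative fits the adjusted p ranged from 0.00163 to 0.0702 for *Penk*, from 0.00782 to 0.0872 for *Sfrp1*, from 0.0108 to 0.163 for *Lyz2*, from 0.00642 to 0.145 for *Mfap4* and from 0.0108 to 0.154 for both *Atp6v1b2* and *Xpr1*. With 3 libraries per group no group was tested for a single distant sample.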

How the results depend on the processing

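The count of 0 genes in MC held with edgeR, RLE or upper-quartile scaling, other filters, quality weights, a robust trend, length correction, fits over 12 or 18 libraries and each single library left out. DESeq2 gave 1, and leaving out libraries gave 0 to 2. The 2 came from leaving out replicate 1 of both genotypes, an alternative chosen after seeing the data.

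Same-numbered MC libraries shared only a number, with correlations of their deviations of -0.21, -0.06 and -0.10. With the replicate block the MC count was 0, with 540 genes at an unadjusted p under 0.05 against 867 without it. For MC against bone, the replicate block within tissue left 1 gene (*Penk*, 2.52, adjusted p 0.0164). That count was 12 with filterByExpr, 16 with no filter and 10 with quality weights, and 0 to 27 with a library left out. The cause was not tested, nor for the values below.

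Log2 fold changes of some genes turned sign. With quality weights they were -0.23 for *Enpp1*, 0.11 for *Pcna*, -0.033 for *Tgfb3*, 0.57 for *Alpl*, -0.076 for *Fgf18* and 0.48 for *Runx2*. DESeq2 gave -0.016 for *Enpp1* and -0.026 for *Fgf18*, edgeR -0.025 for *Fgf18*, no filter 0.0014 for *Timp2*, and a minimum of 1 FPKM in all libraries 0.014 for *Runx2*. With libraries left out, the lowest and highest values were -0.22 and 3.20 for *Igfbp2*, -0.065 and 1.49 for *Sox9*, -0.098 and 1.41 for *Fgfrl1*, -0.56 and 2.37 for *Col9a3*, -0.34 and 1.81 for *Col11a2*, -0.47 and 1.90 for *Cytl1*, -1.19 and 0.17 for *Ptch1*, -0.61 and 1.84 for *Col2a1*, -0.35 and 1.14 for *Wwp2*, -0.54 and 1.14 for *Acan*, -0.19 and 0.70 for *Fgfr1*, -0.035 and 0.53 for *Ank*, -0.62 and 0.16 for *Fgfr2*, -0.23 and 0.46 for *Hspg2*, -0.62 and 0.067 for *Ext2*, -0.96 and 0.038 for *Fgfr3*, -0.33 and 0.22 for *Serpinh1*, -1.41 and 1.09 for *Enpp1*, -0.27 and 0.18 for *Ldha*, -0.19 and 0.65 for *Gm42418*, -0.73 and 0.29 for *Cox20*, -0.53 and 0.56 for *Pcna*, -0.38 and 0.088 for *Igf2*, -0.045 and 0.30 for *Cdkn1c*, -0.047 and 0.11 for *Shc1*, -0.20 and 0.20 for *Tgfb3*, -1.13 and 1.45 for *Alpl*, -0.32 and 0.17 for *Timp2*, -0.30 and 0.21 for *Fgf18*, -0.63 and 1.09 for *Runx2*, -3.66 and 0.35 for *Ibsp*, -1.45 and 1.09 for *Sp7* and -0.67 and 4.11 for *Matn1*.

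Over 24 lists, the median moved by more than the replicate spread in 27 combinations of a list and an alternative. Depth limits genes of few fragments such as *Fgf11*, *Spry4* and *Adgre1*, and intervals cover these samples only.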

Other observations

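Some genes stood out only in fits other than the one reported and were picked after their values were seen. *Srgn*, the proteoglycan of secretory granules in blood cells, was at 2.9, 3.85 and 3.73 TMM-normalized FPKM in *Fgfr2+/S252W* MC and at 0.591, 0 and 0.422 in *Fgfr2+/+* MC, on 67, 53 and 65 fragments against 19, 0 and 7. It was tested only because the *Fgfr2+/S252W* libraries carried it through the filter on low values. It was the 1 gene that DESeq2 called (log2 fold change 3.30, adjusted p 0.0195), while its adjusted p in limma was 0.606. Without replicate 1 of both genotypes, 2 of 10804 genes passed in limma. They were *Neat1*, the nuclear RNA of paraspeckles, at -1.80 (adjusted p 0.00156), and *mt-Nd1*, a mitochondrial subunit of complex I, at 1.09 (adjusted p 0.0215).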
